A study of Homo sapiens with 74 samples.

Results

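Removing ARID1A and removing ARID2 left HAP1 cells with different open chromatin at 20650 of 145532 regions (14.2%). Of these, 15844 (10.9% of the regions tested) were less accessible in the ARID1A knockout than in the ARID2 knockout, and 4806 (3.3%) were more accessible. Without replicate 1 of the ARID2 knockout, the counts were 7411 and 3449, and 45.8% of the 20650 calls were made again, with 7221 lower and 2247 higher regions shared. HAP1 is a near-haploid human line derived from a chronic myeloid leukaemia. Accessibility was read by ATAC-seq, in which a transposase inserts adapters into open DNA. The comparison holds 6 of the 74 samples that the labels list, chosen by the knocked-out gene: 4 libraries of ARID1A knockout cells and 2 libraries of ARID2 knockout cells. The ARID1A libraries come from clone 3 and clone 10, with replicates 1 and 2 of each, and the ARID2 libraries are replicates 1 and 2 of clone 9. No treatment is given for these 6 libraries, and all are HAP1 cells. Wild-type cells (replicates 1, 2, 5 and 6) and the knockouts of 20 other genes were not part of the comparison and serve to place its levels. ARID2 rests on a single clone, so loss of ARID2 cannot be told apart from other changes of that clone.

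BAF complexes, the human SWI/SNF family, slide and evict nucleosomes with energy from ATP. ARID1A is a DNA-binding subunit of canonical BAF, which is known for keeping enhancers open, often at sites of the transcription factors AP-1 and TEAD. ARID2 is the corresponding subunit of PBAF, which also holds PBRM1, BRD7 and PHF10 and is known for binding at promoters. Both forms share the ATPase SMARCA4 and the scaffold subunit SMARCC1. Setting the knockouts directly against each other asks which open regions distinguish the loss of ARID1A from the loss of ARID2, without a wild-type library entering the test.

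The libraries held 8175738 to 9656897 counts, with a median of 26 to 34 counts per region. A region is said to be called where the quasi-likelihood test of edgeR gave an adjusted p below 0.05, and log2 fold changes are ARID1A over ARID2 knockout. Levels are in CPM, the counts of a library scaled to a common total after correction for composition. For correlations alone, CPM were scaled by library totals without that correction. Log2(CPM + 1) then correlated at r = 0.925 to 0.939 among the ARID1A libraries and at 0.925 between the ARID2 libraries. Across the groups r was 0.852 to 0.888. These values are over regions, which are not independent replicates. ARID2 replicate 1 stood apart: it had a median of 8.22 CPM over the lower regions, against 6.57 CPM in ARID2 replicate 2. Without ARID2 replicate 2, 13331 regions were lower and 3493 higher. No RNA or protein was measured here, and accessibility does not check the knockouts: the gene starts of ARID1A and ARID2 were open in both groups.

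The median difference was larger over the lower regions than over the higher ones. The median log2 fold change was -1.14 over the lower regions, a 2.21-fold difference, and 0.88 over the higher ones, a 1.84-fold difference, while the median over all tested regions was -0.01. The called regions also differed in level, with medians of 6.34 CPM at lower and 9.13 CPM at higher regions over the other knockouts. At least 2-fold differences made up 12385 calls (8.51% of the regions tested), of which 10472 (7.2%) were lower and 1913 (1.31%) higher. The 4 ARID1A libraries all lay on 1 side of both ARID2 libraries at 92.6% of the lower regions and 94.7% of the higher ones, against 30.2% of all regions tested. The share of calls that were lower, 76.7%, depended on the scaling: it was 74.1% with RLE size factors, 68.8% with cyclic loess offsets and 54.6% on the normalized values that the authors deposited. The median region of those values was shifted by 0.10 on their own log scale, whose base is not settled, and with that median set to 0 70.4% of the calls were lower.

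Over the lower regions, the ARID1A knockout libraries had median levels of 3.21 to 3.35 CPM, against 8.22 and 6.57 CPM in the ARID2 knockout libraries and 6.10 to 6.59 CPM in wild type. The knockouts nearest to ARID1A at these regions were SMARCA4, at 3.70 to 3.86 CPM over 4 libraries, and SMARCC1, at 4.13 and 4.27 CPM. The other 18 knocked-out genes lay between 5.79 and 7.34 CPM, a range that holds wild type and ARID2 replicate 2. Over the higher regions the order was different. The ARID1A knockout libraries had medians of 10.9 to 12.2 CPM, the ARID2 knockout libraries 5.69 and 5.76 CPM, and wild type 8.37 to 10.2 CPM. The next lowest libraries after ARID2 were those of PBRM1, at 7.74 and 8.14 CPM, and the 4 libraries of ARID1B, the paralog of ARID1A, had 10.0 to 10.9 CPM, within which a SMARCC2 library at 10.6 CPM and wild-type replicate 5 also lay. Over all tested regions the medians were 3.10 to 3.35 CPM in the ARID1A knockout and 3.37 and 3.44 CPM in the ARID2 knockout.

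**Figure D1:**
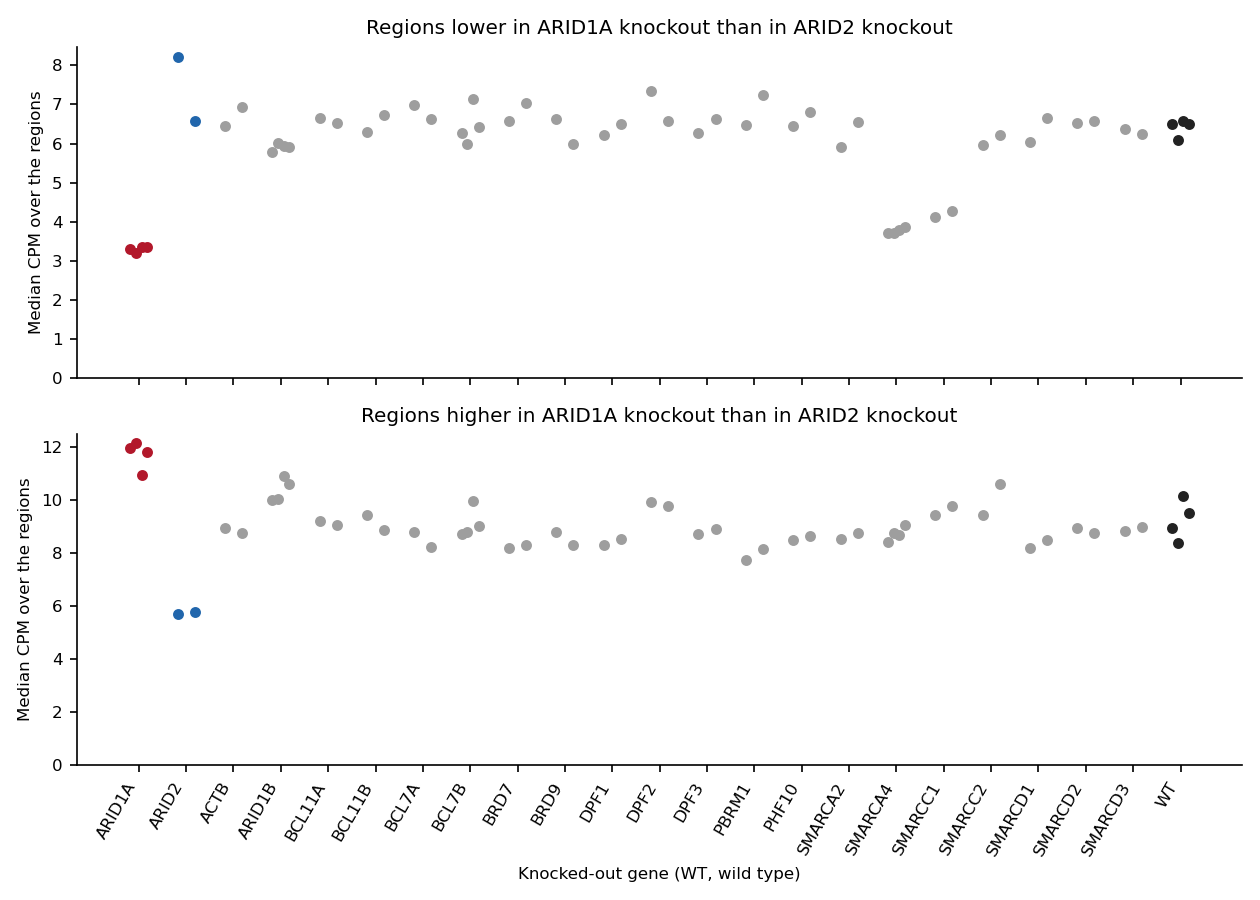
Median CPM in each library (points) over the 15844 regions lower in the ARID1A than in the ARID2 knockout (upper panel) and the 4806 higher regions (lower panel), by knocked-out gene, with ARID1A in red, ARID2 in blue, other knockouts in grey and wild type (WT) in black. SMARCA4 and SMARCC1 lie near ARID1A in the upper panel, and in the lower panel the 2 ARID2 libraries lie below every other library.

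The ARID1A and ARID2 levels in that plot chose the regions, so they are a description, and the levels of the other libraries are not. To read libraries that did not choose the regions, each of the 6 libraries was left out of the test in turn and then measured over the regions called without it, a check added after the data were seen. ARID1A libraries held out in this way had medians of 3.42 to 3.66 CPM over the lower regions, against 6.77 to 8.96 CPM in the ARID2 libraries. At the lower regions called without ARID2 replicate 1, the ARID1A libraries had 3.32 to 3.46 CPM and the held-out ARID2 replicate 1 had 9.69 CPM. At those called without ARID2 replicate 2, the ARID1A libraries had 3.54 to 3.66 CPM and the held-out replicate 7.07 CPM. At the higher regions, held-out ARID1A libraries had 11.4 to 13.5 CPM, against 5.27 to 6.95 CPM in the ARID2 libraries. At higher regions the ARID1A libraries had 18.5 to 21.9 CPM, against 12.7 CPM in the held-out ARID2 replicate 1, and 8.38 to 9.29 CPM, against 4.95 CPM in the held-out replicate 2. The libraries of the opposite group did choose these regions, so the gap between the groups stays in part a description.

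Wild type, which took no part in the test, was used to say which knockout lay further from it. By the distance of log2(CPM + 0.1) from the group means, wild-type replicates 1 and 2 lay nearer to the ARID2 knockout at 12085 of the 15844 lower regions (76.3%). At the other 3759 they lay nearer to the ARID1A knockout. Of the higher regions, 2653 (55.2%) had wild type nearer to the ARID1A knockout and 2153 nearer to the ARID2 knockout. Wild-type replicates 5 and 6 lay nearer to the ARID1A knockout at 34.2% of the lower and 60.6% of the higher regions. At most of the lower regions it was therefore the ARID1A knockout that stood further from wild type, and the higher regions divided more evenly. The nearer knockout could differ from wild type too. At the lower regions, wild-type replicates 1 and 2 lay above both group means at 27.1% and below both at 3.89%. For replicates 5 and 6 these shares were 39.2% and 14.1%.

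The levels of the other knockouts are given by class, beside wild-type replicates 5 and 6, which did not define the classes. Where the ARID1A knockout was lower and wild type lay near the ARID2 knockout, SMARCA4 knockout libraries had medians of 3.47 to 3.75 CPM and SMARCC1 libraries 4.23 and 4.46 CPM, against 7.50 and 7.59 CPM in wild-type replicates 5 and 6. There the PBAF knockouts PBRM1, BRD7 and PHF10 had 6.84 to 7.75 CPM. Where the ARID1A knockout was higher and wild type lay near it, the ARID1A knockout had medians of 10.2 to 10.9 CPM and the ARID2 knockout 4.95 and 5.25 CPM. The libraries nearest to ARID2 in that class were those of PBRM1 at 7.45 and 7.75 CPM, of SMARCA4 at 7.56 to 7.97 CPM and of BRD7 at 7.94 and 8.18 CPM, against 9.80 and 10.5 CPM in wild-type replicates 5 and 6. The low ARID2 level follows from how the class was defined. Of the other knockouts, 2 of the PBAF partners and the shared ATPase lay lowest, with a BCL7A library next, at 8.43 CPM. Wild-type replicates 1 and 2, which helped to define the class, had 8.96 and 9.70 CPM. PHF10, at 8.77 and 9.15 CPM, lay among the remaining knockouts.

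At the 3759 lower regions where wild type lay near the ARID1A knockout, the ARID1A libraries had medians of 3.21 to 3.45 CPM and the ARID2 libraries 8.01 and 6.67 CPM, against 3.72 and 3.89 CPM in wild-type replicates 5 and 6. BCL7A, SMARCD2, PHF10, PBRM1 and BRD7 knockout libraries had 4.96 to 5.45 CPM, and DPF2 libraries 4.67 and 5.05 CPM. SMARCC1 and SMARCC2 libraries had 3.64 to 3.88 CPM, close to wild type, and ARID1B libraries 3.85 to 4.13 CPM. At the 2153 higher regions with wild type near the ARID2 knockout, ARID1A libraries had medians of 12.2 to 14.3 CPM and ARID2 libraries 6.67 and 7.06 CPM. ARID1B, SMARCA4, SMARCC1 and SMARCC2 knockout libraries had 9.42 to 11.9 CPM there, and wild-type replicates 5 and 6 had 8.94 and 9.74 CPM. DPF2 libraries, at 9.25 and 9.73 CPM, and a BCL7B library, at 9.47 CPM, overlapped that range of knockouts. Wild-type replicates 1 and 2, which helped to define the class, had 7.41 and 7.86 CPM. SMARCC2, ARID1B clone 5 and wild-type replicates 5 and 6 have titles of another form than the 6 libraries compared, and the part of that difference in these levels was not tested.

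A separate set of libraries was used to look at the ARID2 side alone. ARID2 knockout cells and wild-type cells, each with a control knockdown, have 2 libraries each in a table of their own, with 5516931 to 11355471 counts. Neither chose the regions above, and the labels give no clone for them. Of 145617 regions tested, 609 (0.418%) were called, of which 544 (0.374%) were lower in the ARID2 knockout and 65 (0.0446%) higher. With the replicate number as a block, 3175 were lower and 700 higher. Of the 4805 regions tested there that were higher in the ARID1A than in the ARID2 knockout, 126 (2.62%) were lower in this ARID2 knockout and 0 were higher. Their median log2 fold change was -0.42, with 78.5% below 0, against 49.9% of all regions tested. The higher regions were also more accessible, with a median of 9.13 CPM over the other knockouts, against 3.41 CPM over all regions. The part of level in this share was not tested. Median levels over these regions were 7.95 and 7.52 CPM in the ARID2 knockout with control knockdown and 11.1 and 10.3 CPM in wild type with control knockdown.

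Calls in these libraries are given by class. Where wild type lay near the ARID1A knockout, 120 of 2652 higher regions (4.52%) were lower in the separate ARID2 knockout. Their median log2 fold change was -0.53, with 83.4% below 0. Where wild type lay near the ARID2 knockout, 6 of 2153 higher regions (0.279%) were lower, against 0.374% of all regions, and 0 higher. The median was also below 0 there, at -0.29, with 72.3% of the regions below 0. Of the 3755 lower regions with wild type near the ARID1A knockout, 23 (0.613%) were higher in the separate ARID2 knockout and 0 were lower. Their median was 0.24, with 31.6% below 0. Over the 12082 lower regions with wild type near the ARID2 knockout, 41 (0.339%) were lower and 3 higher. That share of lower calls was near the 0.374% of all regions, and the median was -0.17, with 64.2% below 0. Over all lower regions 41 (0.259%) were lower and 26 (0.164%) higher. Among the lower regions called without ARID2 replicate 1, however, only 10 (0.135%) were lower and 20 higher. With the replicate block, 2.18% of all regions were lower and 0.481% higher. Of the 2652 higher regions with wild type near the ARID1A knockout, 518 (19.5%) were then lower and 2 higher. With that block 101 of the 3755 lower regions with wild type near the ARID1A knockout (2.69%) were higher and 8 lower. Of the 12082, 315 (2.61%) were lower, a share near the 2.18% of all regions, and 25 higher. These counts rest on 2 libraries a group: without any 1 of the 4, the whole test called 102 to 182 regions.

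**Figure D2:**
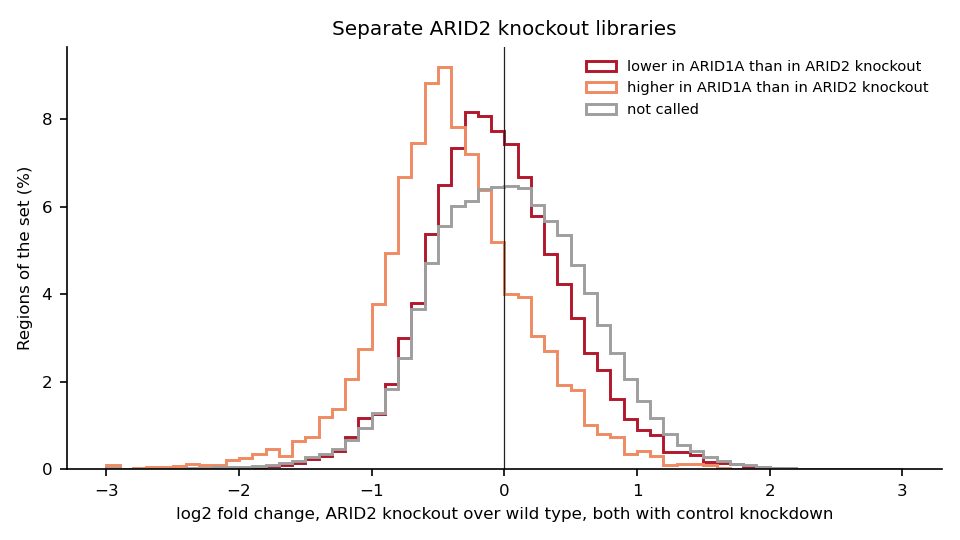
Log2 fold change of ARID2 knockout over wild type, both with control knockdown, as a share (%) of the regions lower, higher or not called in ARID1A over ARID2 knockout. Values beyond 3 in size are drawn in the end bins. The distribution of the higher regions is shifted below 0, with a median of -0.42, and that of the lower regions lies close to 0, with a median of -0.08.

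The regions with the largest differences were named by rule from calls of above-median accessibility whose groups did not overlap. The region chr3:158349541-158350258 in hg19 had 2.07 and 3.10 CPM in ARID1A clone 3 and 3.46 and 3.77 CPM in clone 10, against 35.6 and 21.3 CPM in the ARID2 knockout. Its log2 fold change was -3.23 (SE 0.208, adjusted p = 1.27e-28). Wild type held 18.8, 14.9, 11.7 and 8.80 CPM, between the groups, and the SMARCA4 knockout averaged 3.62 CPM. The region chr10:65700147-65700787 had 2.32 and 3.10 CPM in ARID1A clone 3 and 1.68 and 4.19 CPM in clone 10, against 34.4 and 17.4 CPM in the ARID2 knockout, and fell by 3.21 on the log2 scale (SE 0.217). Wild type had 20.8 to 26.6 CPM there, within the span of the ARID2 libraries, and SMARCA4 averaged 1.42 CPM. SMARCC1, unlike SMARCA4, averaged 21.6 CPM.

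The next regions were of lower level. The region chr20:9553191-9553861 had 1.22 and 1.44 CPM in clone 3 and 1.23 and 1.99 CPM in clone 10, against 16.9 and 8.28 CPM in the ARID2 knockout (log2 fold change -3.11, SE 0.266). At chr17:52297913-52298679 the values were 1.10 and 1.11 CPM in clone 3 and 1.01 and 3.03 CPM in clone 10, against 14.4 and 11.2 CPM in the ARID2 knockout (log2 fold change -3.11, SE 0.248). The remaining 6 of the first 10 had log2 fold changes of -3.08 to -3.03, mean levels of 0.994 to 2.82 CPM in the ARID1A knockout and of 7.99 to 22.5 CPM in the ARID2 knockout. At 10 of these 10 regions every ARID1A library lay below all 4 wild-type libraries, and the mean of the SMARCA4 knockout lay below both ARID2 libraries. None of the 10 was called in the separate ARID2 knockout, where their log2 fold changes ran from -0.86 to 1.45.

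The smallest adjusted p of a lower region, 2.97e-31, belonged to chr11:38921176-38922672. It had 3.90 and 5.97 CPM in clone 3 and 5.70 and 5.55 CPM in clone 10, against 48.4 and 32.8 CPM in the ARID2 knockout, and wild type had 27.3 to 40.8 CPM. The SMARCA4 and SMARCC1 knockouts, at means of 25.4 and 21.2 CPM, lay well above the ARID1A libraries at this region, while the ARID1B knockout averaged 7.08 CPM. The next smallest, 6.29e-29, was at chr12:97858002-97859149, where the clones differed: clone 3 had 5.74 and 5.20 CPM and clone 10 had 14.9 and 19.6 CPM, against 67.4 and 42.4 CPM in the ARID2 knockout. ARID1A clone 3 was lower than clone 10 there by 1.66 on the log2 scale (adjusted p = 1.64e-07).

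Among higher regions, chr14:26559909-26560790 led, with 12.2 and 9.95 CPM in ARID1A clone 3 and 6.70 and 8.58 CPM in clone 10, against 0.421 and 0.101 CPM in the ARID2 knockout. Its log2 fold change was 5.06 (SE 0.612, adjusted p = 1.15e-11). Wild type had 0.573 to 2.16 CPM and the other knockouts 0.270 to 5.40 CPM, so every ARID1A library lay above all of them. The second, chr2:205911874-205912636, showed the opposite picture. It had 6.71 and 6.30 CPM in clone 3 and 5.36 and 7.64 CPM in clone 10, within the 5.87 to 9.08 CPM of wild type but for 1 library, against 0 and 0.404 CPM in the ARID2 knockout (log2 fold change 4.87, SE 0.463). Both separate ARID2 knockout libraries with control knockdown also held 0 CPM, against 7.21 and 6.18 CPM in wild type. The lowest of the other knockout libraries also held 0 CPM, and their median was 7.68 CPM.

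At the next higher regions the ARID1A libraries again lay above all wild-type libraries. The region chr3:6197388-6198460 had 18.7 and 17.9 CPM in clone 3 and 15.5 and 19.3 CPM in clone 10, against 1.26 and 2.22 CPM in the ARID2 knockout (log2 fold change 3.31, SE 0.309), with 2.15 to 4.47 CPM in wild type. SMARCC1 at 17.2 CPM and DPF2, a canonical BAF subunit, at 15.8 CPM averaged close to the ARID1A level. At chr16:51241032-51241675 the values were 3.42, 5.53, 3.91 and 6.28 CPM in the ARID1A knockout, against 0.211 and 0.707 CPM in the ARID2 knockout (log2 fold change 3.31, SE 0.562). Wild type had 0.716 to 1.79 CPM there, so both ARID2 libraries lay below all 4 wild-type libraries. The remaining 6 of the first 10 had log2 fold changes of 2.87 to 3.18. Over the 10 regions, every ARID1A library lay above all wild-type libraries at 7 and both ARID2 libraries lay below all of them at 7.

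Of these 10 higher regions, 3 were called in the separate ARID2 knockout, all lower. Besides the chromosome 2 region, these were chr4:111544093-111544677 and chr21:22033472-22035322. The first had 41.0, 35.7, 32.2 and 35.1 CPM in the ARID1A knockout, against 4.43 and 4.45 CPM in the ARID2 knockout (log2 fold change 2.99, SE 0.219, adjusted p = 2.02e-24, the smallest of the higher regions). PBRM1 at 2.79 CPM, PHF10 at 2.93 CPM and SMARCC1 at 4.30 CPM averaged as low as ARID2, while BRD7 at 24.4 CPM did not, and wild type had 15.4 to 22.3 CPM. In the separate libraries it had 4.27 and 5.64 CPM in the ARID2 knockout and 22.0 and 25.6 CPM in wild type (log2 fold change -2.26, adjusted p = 0.000269). The chromosome 21 region had 26.7, 19.6, 14.4 and 22.0 CPM in the ARID1A knockout, against 1.79 and 3.44 CPM in the ARID2 knockout, and 22.0 to 41.1 CPM in wild type. There BRD7 at 2.94 CPM and PHF10 at 4.72 CPM averaged near ARID2, and PBRM1 at 24.7 CPM did not. It fell by 2.42 on the log2 scale in the separate ARID2 knockout (adjusted p = 0.000501). At the region with the next smallest adjusted p, chr1:184869466-184871077, the ARID1A knockout had 37.5 to 50.5 CPM, against 5.37 and 7.68 CPM in the ARID2 knockout and 9.32 to 19.2 CPM in wild type (log2 fold change 2.71).

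**Figure D3:**
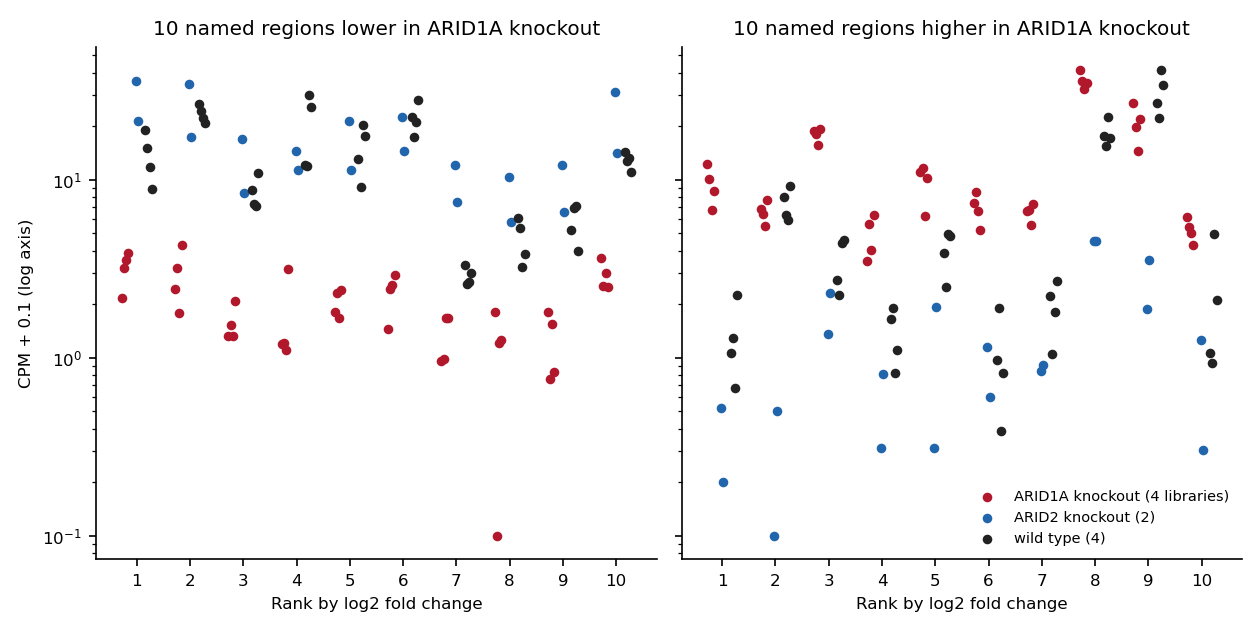
CPM + 0.1 (log axis) in each ARID1A knockout (red), ARID2 knockout (blue) and wild-type (black) library at the 10 regions with the lowest (left) and highest (right) log2 fold change under the naming rule, by rank. On the left the ARID1A libraries lie below wild type and ARID2, and on the right regions 2, 8 and 9 are ones where the ARID2 libraries lie below wild type by the widest margins.

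Differences were more frequent among open regions. With the regions ranked by their mean level over the other knockouts and cut into 4 groups of equal size, lower calls made up 2.01%, 5.66%, 15.4% and 20.5% of the regions, from the least to the most accessible, and higher calls 0.833%, 1.49%, 2.88% and 8.01%. More reads give more power, so these shares also follow the depth per region. Without ARID2 replicate 1, the shares of lower calls were 0.657%, 1.95%, 6.68% and 11.1% in the same order. The shares also differed by width. Among the 46942 regions of 501 bp, the minimum width, 1.78% were lower and 0.867% higher. Among 79653 regions of 502 to 999 bp, 14.9% were lower and 3.09% higher. Among 14391 regions of 1000 to 1499 bp, 19.2% were lower and 8.92% higher. Among the 4546 regions of 1500 bp or more, 394 (8.67%) were lower and 650 (14.3%) higher, but with cyclic loess offsets 524 were lower and 418 higher, and on the authors' normalized values relative to their median 302 were lower and 148 higher. Without ARID2 replicate 1, 4.40% of these widest regions were lower and 11.0% higher. The lean of the widest regions towards the ARID1A knockout thus depended on the scaling.

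**Figure D4:**
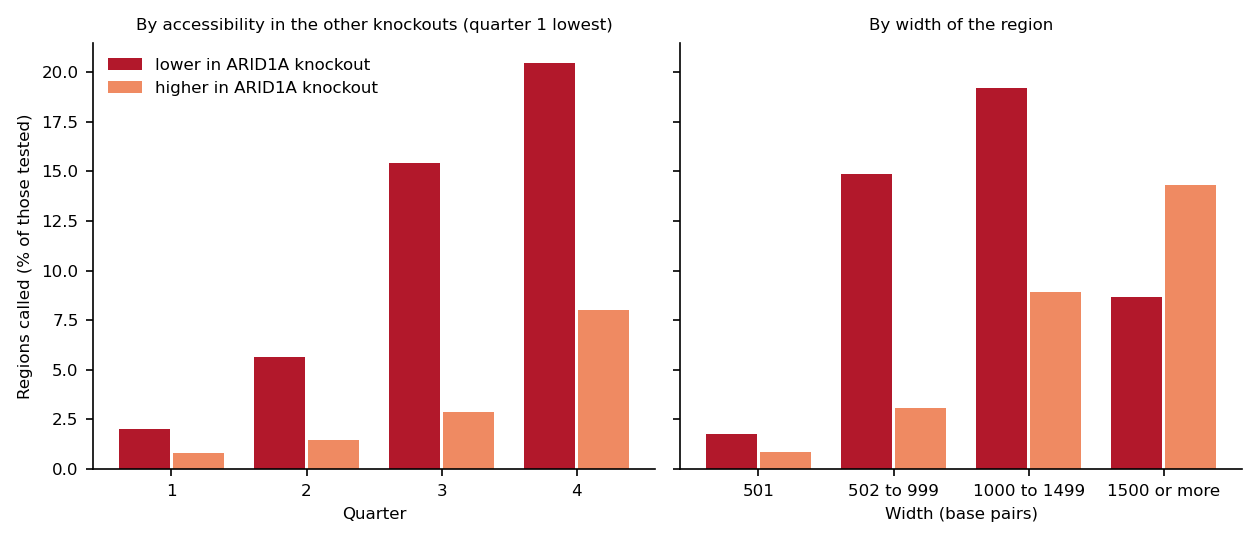
Share of tested regions (%) called lower (dark red) or higher (orange) in the ARID1A than in the ARID2 knockout, by rank of mean CPM over the other knockouts in 4 groups of equal size (left, 1 lowest) and by width in base pairs (right). Lower calls rise to 20.5% in the most accessible group, and higher calls reach 14.3% among regions of 1500 bp or more under TMM scaling, a lean that cyclic loess offsets and the authors' median-centred values reverse.

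Calls were spread over the genome. Lower calls made up 4.37% of the regions on chromosome 19 and 13.1% on chromosome 3, the lowest and highest shares of any chromosome. No stretch of 5 or more neighbouring regions was near empty in any of the 3 clones. Of 588 bins of 5 Mb with at least 20 regions, 1 had a median log2 fold change beyond 0.5 in size, on chromosome 4 from 60 to 65 Mb. There the median was -0.55 and 58 of 180 regions were lower and 0 higher, with median levels of 1.93 CPM in ARID1A clone 3, 2.04 CPM in clone 10, 2.66 CPM in the ARID2 knockout and 2.87 and 3.41 CPM in the pairs of wild-type libraries.

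Called regions lay beside others of the same direction more often than regions at large did, though most did not. The next region along the chromosome was also lower for 20.8% of the lower regions, against 10.9% of all regions. It was also higher for 9.30% of the higher regions, against 3.30%. The next region was called in the opposite direction for 2.26% of the lower regions and 6.66% of the higher ones. The longest run of lower calls was 8 neighbouring regions over 202 kb at chr2:32234161-32436566, with a median log2 fold change of -0.97. Its median levels were 14.6 CPM in the ARID1A knockout, 25.5 CPM in the ARID2 knockout and 14.5 and 18.9 CPM in the pairs of wild-type libraries, so wild type lay nearer to the ARID1A knockout. PBRM1 was at 27.0 CPM there, close to ARID2. Of the 11 lower runs of 6 or more regions, that at chr11:80342951-80430798 had the lowest median log2 fold change, -1.95 over 7 regions, with 1.89 CPM in the ARID1A knockout, 7.34 CPM in the ARID2 knockout and 1.42 CPM in the SMARCA4 knockout. The 1 run of 6 or more higher calls, at chr18:24442914-24499971, spanned 57.1 kb. Its median levels were 9.37 CPM in the ARID1A knockout, 1.55 CPM in the ARID2 knockout, 8.39 CPM in the SMARCA4 knockout and 2.45 and 2.84 CPM in the pairs of wild-type libraries.

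The ARID1A clones gave similar pictures. Against the same ARID2 libraries, clone 3 had 16660 calls (11.4%), 12495 lower (8.59%) and 4165 higher (2.86%). Clone 10 had 14069 calls (9.67%), 11211 lower (7.7%) and 2858 higher (1.96%). Over the lower regions the median log2 fold change was -1.18 for clone 3 and -1.11 for clone 10, and over the higher regions 0.91 for clone 3 and 0.83 for clone 10. Without ARID2 replicate 1, clone 3 had 9267 calls and clone 10 had 6924. The clones share the ARID2 libraries, so these values are set side by side and not counted as independent. Set against each other, clone 3 and clone 10 differed at 87 regions (0.0598%), of which 32 were among the lower regions and 19 among the higher ones. At an unadjusted p below 0.05 they differed at 8877 regions (6.1%), and without any 1 of their 4 libraries 40 to 57 regions were called.

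A pair of regions that differed between the clones was chosen after their values were seen. At chr11:115374863-115375976, clone 3 had 12.1 and 11.2 CPM and clone 10 had 48.7 and 51.4 CPM, with 5.58 and 6.97 CPM in the ARID2 knockout (clone 3 minus clone 10 on the log2 scale -2.11, adjusted p = 2.28e-15). At chr11:37553799-37554905, clone 3 had 10.6 and 14.5 CPM and clone 10 had 1.79 and 1.99 CPM, with 21.5 and 12.5 CPM in the ARID2 knockout (2.72, adjusted p = 3.18e-10). At each of these regions the libraries of a clone were close to each other and far from those of the other clone.

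The genes of the complexes themselves were read over their bodies with 10 kb on either side. Over 12 subunit genes, 135 regions had a median log2 fold change of 0.07, against -0.01 over all regions. Of the 135, 24 were called (17.8%, against 14.2% of all regions). There were 20 lower (14.8%, against 10.9% of all regions) and 4 higher (2.96%, against 3.30%). Without ARID2 replicate 1, 11 were lower and 3 higher. The most significant lay within ARID1B, the paralog that can take the place of ARID1A, 368 kb from its start. This region, chr6:157466559-157467320, had 8.66 and 8.29 CPM in clone 3 and 5.36 and 8.47 CPM in clone 10, against 20.9 and 16.6 CPM in the ARID2 knockout and 19.8 to 22.9 CPM in wild type (log2 fold change -1.31, SE 0.192, adjusted p = 1.46e-08). In all, 9 of 54 regions over ARID1B (16.7%) were lower, against 10.9% of all regions, and 0 were higher. Over ARID1A, 3 of 9 were lower, led by chr1:27049622-27050455, which had 5.86 to 7.71 CPM in the ARID1A knockout and 14.5 and 19.0 CPM in the ARID2 knockout (adjusted p = 4.43e-08). Wild type had 10.5, 13.3, 6.73 and 10.1 CPM there, below both ARID2 libraries. Only the wild-type library at 6.73 CPM lay within the span of the ARID1A libraries, and the others lay above it. Over ARID2, 3 of 15 regions were lower.

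AP-1 and TEAD factors bind many enhancers that canonical BAF keeps open, and 13 of their genes, partners and targets were read in the same way. Their 108 regions had a median log2 fold change of -0.22, and 20 were called (18.5%, against 14.2% of all regions). Of the 108, 18 (16.7%, against 10.9% of all regions) were lower, in 6 genes. Another 2 (1.85%, against 3.30%) were higher, in 2 genes. Without ARID2 replicate 1, 8 were lower and 2 higher. TEAD1, which encodes a DNA-binding partner of YAP, held 8 of the lower regions among 33 (24.2%). WWTR1, which encodes the YAP paralog TAZ, held 4 among 25 (16%). YAP1 held 2 of 7, AMOTL2, a known YAP and TEAD target, 2 of 4, and CCN2 and ATF3 1 each. None of the regions over JUN, JUNB, JUND, FOSL2 and CCN1 was called.

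The smallest adjusted p among them belonged to an AMOTL2 region 11.0 kb from the gene start, chr3:134082683-134083822. It had 8.79 and 9.95 CPM in clone 3 and 9.16 and 10.1 CPM in clone 10, against 31.5 and 28.1 CPM in the ARID2 knockout (log2 fold change -1.67, SE 0.176, adjusted p = 1.77e-14). Wild type had 20.2, 21.3, 9.31 and 13.1 CPM in replicates 1, 2, 5 and 6, so the ARID2 libraries lay above all wild-type libraries. Wild-type replicates 1, 2 and 6 lay above all ARID1A libraries, and replicate 5 lay within their span. In WWTR1, chr3:149379845-149380494 had 4.25 to 5.75 CPM in the ARID1A knockout, against 15.3 and 12.0 CPM in the ARID2 knockout and 10.1 to 14.7 CPM in wild type (log2 fold change -1.55, SE 0.219). In TEAD1, chr11:12716602-12717512 had 3.13 to 5.53 CPM in the ARID1A knockout, against 12.2 and 10.5 CPM in the ARID2 knockout and 9.41 to 13.8 CPM in wild type (log2 fold change -1.46, SE 0.219). At the WWTR1 and TEAD1 regions the ARID1A knockout was the group away from wild type.

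The lower regions of both lists lay away from gene starts. Of the 25 genes, 24 had a region at the start, and 0 of these 24 were lower and 2 higher, while 38 of the 219 regions elsewhere (17.4%) were lower and 4 higher, against 19 and 3 without ARID2 replicate 1. The 38 lay 3.67 to 409.6 kb from the start, with a median of 71.2 kb. All 24 start regions were in the most accessible of the 4 groups, in which 20.5% of regions were lower. Their mean levels ran from 11.0 to 63.1 CPM in the ARID1A knockout and from 12.8 to 56.9 CPM in the ARID2 knockout. The log2 fold changes at the starts had a median of 0.22 and were above 0 at 23 of 24, against 49.1% of all regions, a lean that fell to 16 of 24 with cyclic loess offsets and to 13 of 24 on the authors' median-centred values. The 2 higher ones were the starts of FOS, at 0.41 (SE 0.146, adjusted p = 0.0402), and of FOSL1, at 0.44 (SE 0.158, adjusted p = 0.0437), both AP-1 subunits. Each of these calls was lost under 8 of 18 alternatives, with adjusted p reaching 0.88 for FOS and 0.804 for FOSL1.

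**Figure D5:**
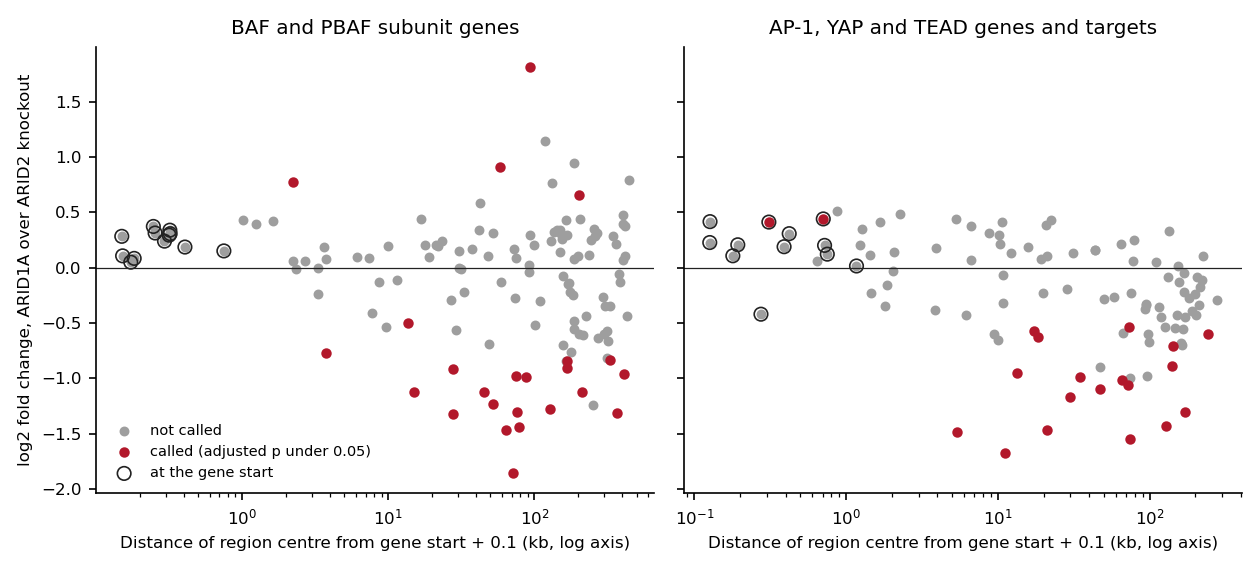
Log2 fold change of ARID1A over ARID2 knockout against the distance of each region's centre from its gene start plus 0.1 kb (log axis), for 135 regions over 12 BAF and PBAF subunit genes (left) and 108 regions over 13 AP-1, YAP and TEAD genes and targets (right). Called regions are red, and black rings mark the 24 regions at a gene start, of which 0 are called lower.

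The promoters of CCN2 and YAP1 are shown, 2 of the 3 listed genes with a TEAD motif in a promoter. Their starts were open and not called, while a region within YAP1 and a region beyond the end of CCN2 were lower. They are the 250 bases before the RefSeq gene start in GRCh38.p14, at chr6:131951373-131951622 on the minus strand and chr11:102110197-102110446 on the plus strand. Capitals mark GGAATG, a TEAD motif, which was searched on both strands as GGAATG and CATTCC, as was the palindromic AP-1 motif TGANTCA, with no match of one counted as the other.
CCN2: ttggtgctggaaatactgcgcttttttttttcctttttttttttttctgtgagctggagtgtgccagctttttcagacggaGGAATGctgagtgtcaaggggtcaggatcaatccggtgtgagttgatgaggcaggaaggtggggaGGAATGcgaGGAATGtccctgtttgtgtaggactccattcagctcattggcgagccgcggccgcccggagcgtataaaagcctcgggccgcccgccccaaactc
YAP1: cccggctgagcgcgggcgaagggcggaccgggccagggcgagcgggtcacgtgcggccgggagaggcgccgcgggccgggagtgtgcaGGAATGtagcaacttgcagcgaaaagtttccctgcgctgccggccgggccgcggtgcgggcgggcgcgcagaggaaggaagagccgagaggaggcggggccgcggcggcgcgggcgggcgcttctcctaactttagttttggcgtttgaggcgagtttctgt

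CCN2 holds GGAATG 3 times, starting 169, 104 and 95 bases before the gene start, and YAP1 holds it once, 162 bases before. Of 35116 RefSeq promoters of this length, 11.9% hold this motif and 6.57% hold TGANTCA. Of the 13 listed genes 10 had a promoter sequence, with 13 promoters between them. GGAATG stood in a promoter of 3 of these genes and TGANTCA in that of 0. These are counts of genes, while the shares above are of promoters. The third, AMOTL2, also had an uncalled start (log2 fold change 0.01, SE 0.138, adjusted p = 0.969) and 2 lower regions elsewhere. The CCN2 start region had 39.0, 37.8, 36.6 and 36.1 CPM in the ARID1A knockout, against 37.1 and 26.8 CPM in the ARID2 knockout (log2 fold change 0.20, SE 0.151, adjusted p = 0.456). The YAP1 start region had 64.2, 66.5, 59.1 and 62.7 CPM in the ARID1A knockout, against 62.5 and 51.3 CPM in the ARID2 knockout (log2 fold change 0.12, SE 0.138, adjusted p = 0.661). The region beyond CCN2, 13.2 kb from the start, had a log2 fold change of -0.95 (adjusted p = 0.0199), and a YAP1 region 5.27 kb from the start had one of -1.48. The YAP1 region, chr11:101986154-101986766, had 5.00, 2.21, 3.58 and 3.66 CPM in the ARID1A knockout, against 11.3 and 8.49 CPM in the ARID2 knockout and 3.71 to 8.02 CPM in wild type.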

How the data were processed

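Per the file headers and values, the deposited knockout and knockdown tables hold counts, whole reads per region that the authors had not scaled. Genome build hg19, MACS2 2.1.1.20160309, Picard 1.118 and Bowtie2 2.2.4 stand in the submitters' processing notes, without roles. How regions were merged, and whether starts count from 0 or 1, is not given in the sources used here, so coordinates stand as deposited. The authors' normalized table was taken as log2 from its slope of 0.804 against log2 CPM (its base and method are not given in the sources used here), so only its directions, calls and split were used, beside the shift of its median. Matching columns were not found for wild-type replicates 3 and 4, and 2 columns that the labels do not list were not used.

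Counts were tested in R 4.3.3 with edgeR 4.0.16 (TMM, default filter, quasi-likelihood test, 2-sided, Benjamini-Hochberg adjustment over 145532 regions). The fit had 52 knockout libraries, 1 coefficient for each of 26 clones, no wild type and 26 residual degrees of freedom. The ARID1A effect is the mean of its clones. The knockdown table was fitted in the same way, with 8 residual degrees of freedom. The alternatives used limma 3.58.1 and DESeq2 1.42.0. Printed CPM use TMM factors over all libraries of a table. On simulated data with 100 changed regions of each size among 145523, 20% of 2-fold and 81% of 4-fold changes were recovered. In the same data 5 unchanged regions were called. Far fewer regions changed there than were called in the real data. That makes the adjustment stricter, so these shares do not give the power of the real test. Replicates differed by more than sampling noise, so none was counted as a repeat deposit. In the main fit p-values measure the spread between replicate libraries of the same clone, taken over all 26 clones. The spread between clones that lack the same gene does not enter them. Nothing in the labels says that replicates were separate cultures, so the spread that is measured may be technical.

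Named regions were called, lay above the median level of the 6 libraries, had groups that did not overlap and lay in no shifted bin or empty stretch. They are the 10 of largest log2 fold change per direction, the 2 of smallest adjusted p, and up to 3 called regions per gene list by adjusted p. The comparison, rule and gene lists were chosen with earlier results of these data known. Libraries held out, counts by class or list without ARID2 replicate 1, and splits under other scalings were also added after the data were seen. Other list regions and those between clones were chosen after their values were seen. Gene spans and strands in hg19 were entered from general knowledge, since the reference at hand is GRCh38.p14. All 25 spans were within 25% of the RefSeq length. A region is at a gene start if the start lies within 250 bp of it. Depth per library is given with the results.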

Additional observations from a re-analysis of the deposited data

Results flagged for a closer look

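In 2 of the 31 named or singled-out regions, 1 of the 4 ARID1A libraries lay far from the other 3. The gap, as a part of the group's range, was one that chance gives in about 1 of 20 groups. A count of 2 among 31 is near that share. The rule also takes the 4 libraries as alike, though they come from clones 3 and 10. At chr17:52297913-52298679 the gap was 0.951 of the range, with clone 10 replicate 2 at 3.03 CPM and the other ARID1A libraries at 1.01 to 1.11 CPM. At chr6:157466559-157467320, within ARID1B, the gap was 0.888, with clone 10 replicate 1 at 5.36 CPM and the others at 8.29 to 8.66 CPM. Both outlying libraries still lay below the ARID2 libraries.

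At chr12:97858002-97859149 the effect differed between the ARID1A clones by a test of the difference itself, at -1.66 for clone 3 minus clone 10 on the log2 scale. The log2 fold change against the ARID2 knockout was -3.36 for clone 3 and -1.70 for clone 10.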

How the results depend on the processing

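Over the direct comparison's alternatives no named region changed direction, and 29 of 31 stayed called in every alternative that tested them. The exceptions were the FOS and FOSL1 starts. These regions were chosen among the calls of the main fit, and the alternatives reuse its libraries, so this stability is a description and does not extend to all calls. The count of 20650 called regions was 10860 to 18453 without 1 of the 6 libraries, lowest without ARID2 replicate 1, with 7411 to 13625 lower and 3449 to 5076 higher. Requiring a 2-fold change left 12385, 10472 lower and 1913 higher, and the authors' normalized values gave 8664 lower regions. DESeq2 called 20313, the 6 libraries alone 16497, and counts summed per clone 15919 with 2 residual degrees of freedom.

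Without 1 library, clone 3 against the ARID2 knockout had 9267 to 14530 calls and clone 10 had 6924 to 13045, both lowest without ARID2 replicate 1. In these fits the remaining library of a clone is assumed to vary like the other groups. The clones differed from each other at 40 to 57 regions without 1 of their libraries, and the separate ARID2 knockout differed from wild type at 102 to 182.

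In the knockout table replicate numbers do not pair the 3 clones: replicate 1 minus replicate 2 correlated between them at 0.026, 0.013 and -0.128. In the knockdown table this correlation was 0.0593 between the groups compared and above 0 for all 28 pairs of groups, up to 0.426. It passed 0.1 for 25 of them, a hint of shared replicates that the labels do not state. With the replicate block (class counts under it were added after the data were seen), 21106 regions were called in the direct comparison, 17168 for clone 3, 14425 for clone 10, 90 between the clones and 3875 in the separate ARID2 knockout. Depth limits low regions most, and region sequences were not analysed here.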
